A study of Pinus pinaster with 24 samples.

Results

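The 150 transcripts described here were those that stood highest in both outer areas of the maritime pine root tip, the root cap and the developing cortex, over both inner areas, the meristem and the developing vascular tissue. They are 150 of 51211 transcripts in the deposited table. Each transcript was scored as the log2 ratio of its lower outer mean to its higher inner mean, with 0.5 CPM added to both means, and the 150 highest scores were taken. CPM here are scaled read counts, so named by the authors, whose scaling method is not given and whose library totals are not equal. An area mean is the mean of 6 libraries. These area levels chose the transcripts, so differences between outer and inner areas of the 150 are given as a description, with no test.

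Gene expression was measured by RNA sequencing in 24 libraries from root tips of Pinus pinaster seedlings aged 1 month, all from 1 seed provenance. All seedlings had spent 3 days on a nutrient solution without nitrogen, and then received either KCl at 3 mM, the control, or potassium nitrate at 3 mM, each as 80 mL of solution. Roots were harvested 2 h later, and the 4 areas were cut by laser from 30 µm cryosections. Each area has 3 KCl and 3 nitrate libraries, numbered by experiment. The areas were chosen by position and match the named tissues only approximately, per the labels. How many seedlings went into a library, and whether the experiments were separate cultures, is not given in the sources used here, and p-values therefore cover only the spread among these libraries. The transcript IDs are paired with no gene name in the sources used here, so the labelled areas could not be checked against marker genes, and transcripts are described by ID and level, not by function.

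The root cap is a sheath of living cells over the apex. It shields the meristem, senses gravity, secretes mucilage and sheds its outer cells into the soil as the root grows. The cortex is the ground tissue between the root surface and the vascular cylinder, and carries water and ions inward. In many conifers the cap and the outer cortex arise from a common group of initial cells at the tip rather than from separate layers, which makes the boundary between them less sharp than in Arabidopsis.

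The libraries held 45262154 to 51517525 recovered reads, and a single read was worth 0.0171 to 0.0247 CPM. Between 1.76% and 5.16% of all transcripts had no read in a library. The highest share belonged to cap KCl replicate 3, against 2.91% to 3.62% in the other 5 cap libraries. The nitrate effect in the cap and its difference from that in the cortex are given with and without it. The order of the sets and the cortex shares of single sets are given only with it. Libraries from the same solution and experiment number deviated from their group means together. They are treated as 1 root-tip set, which gives 6 sets, 3 with KCl and 3 with nitrate. The labels do not say whether the libraries of a set came from the same root tips, so the name is a working one. CPM values are not divided by transcript length, so a higher CPM of one transcript than of another is a larger share of reads, not a larger number of molecules. In pieces of tissue, fewer cells of a type and less RNA per cell cannot be told apart.

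The 150 transcripts made up 4.63% ± 0.884 (SD, n = 6) of the summed CPM of a cap library and 0.388% ± 0.0633 (SD, n = 6) of that of a cortex library. The meristem share was 0.00802% ± 0.00361 and the vascular share 0.00436% ± 0.00204 (SD, n = 6 for both). The lowest cap library had 3.57% and the highest cortex library 0.476%, so the shares of the cap and cortex did not overlap with each other. The highest meristem library had 0.0123% and the highest vascular library 0.0084%, both far under the lowest cortex library at 0.283%.

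**Figure D1:**
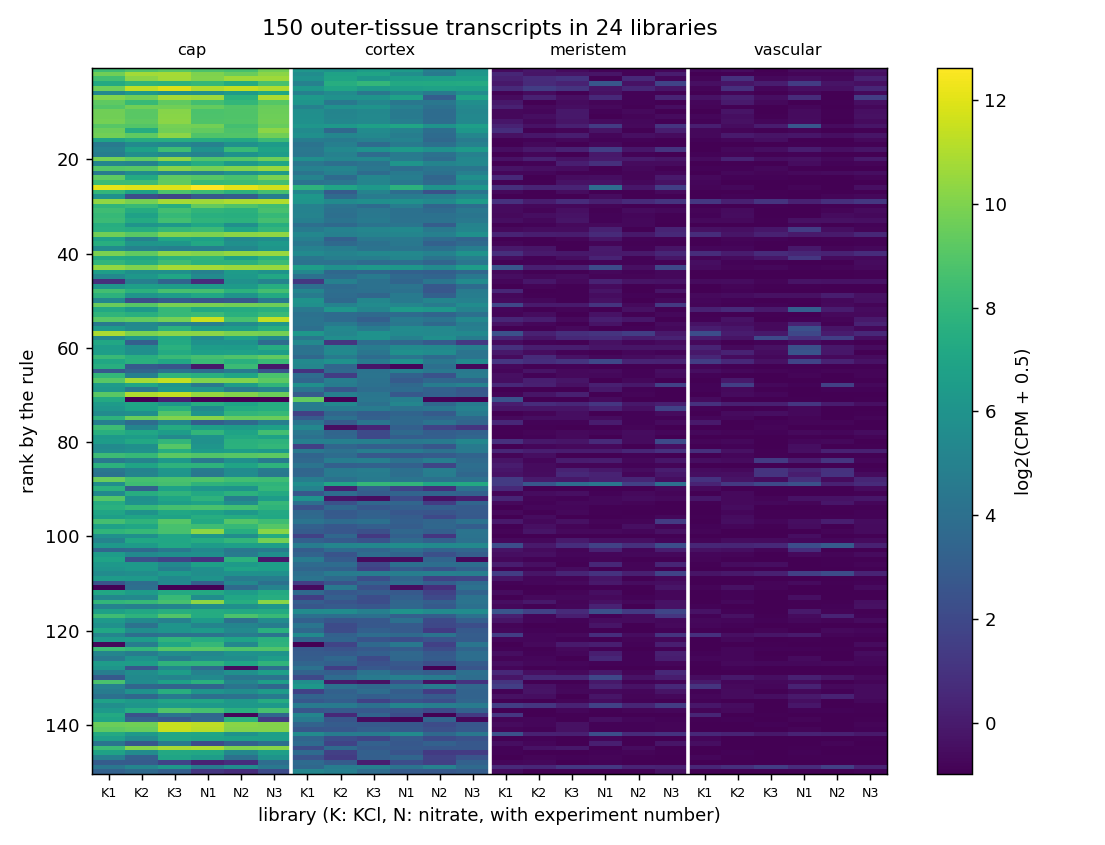
Levels of the 150 transcripts (rows, by rank of the score) in the 24 libraries (columns, grouped by area, K for KCl and N for nitrate with the experiment number), coloured by log2(CPM + 0.5). The cap columns are the brightest and the cortex columns intermediate, while most cells of the meristem and vascular columns lie near the floor of the scale; single dark cells in the cap and cortex columns are transcripts near 0 in some root-tip sets.

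For the typical transcript of the 150 the cap mean was 130.6 CPM (median, with the middle 50% between 59.8 and 361.9 CPM), and the cortex mean was 17.5 CPM (9.17 to 31.7 CPM). The median meristem mean was 0.168 CPM (0.0813 to 0.441 CPM) and the median vascular mean 0.083 CPM (0.0365 to 0.282 CPM). In 43 transcripts both inner means were under 0.1 CPM, in 127 both were under 1 CPM, and 2 transcripts had no read in any vascular library. The meristem mean was above the vascular mean in 109 of the 150 and below it in 41.

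Separation held in single libraries and not only in means. In 139 of the 150, the lowest of the 12 cap and cortex libraries lay above the highest of the 12 inner libraries, which was so for 4.34% of all 51211 transcripts. The rule used these libraries, so nothing further is read from that count. The other 11 were all transcripts whose outer level differed more than 10-fold between root-tip sets, and they are taken up below. A level of at least 1 CPM was reached in all 12 outer libraries by 137 of the 150.

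The highest score, 6.68, belonged to pp_227133. Its cap libraries read 334.2, 474.4 and 556.9 CPM with KCl and 452.6, 403.9 and 850.5 CPM with nitrate, and its cortex libraries 70.3, 60.6 and 90.8 CPM with KCl and 85.7, 29.0 and 65.0 CPM with nitrate. All 12 inner libraries lay between 0 and 0.383 CPM. Cap, cortex and inner libraries of this transcript therefore formed 3 ranges with no overlap.

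The second-highest score was that of pp_151980, with a cap mean of 1216 ± 441 CPM and a cortex mean of 72.4 ± 39.1 CPM (SD, n = 6 each). Its inner libraries reached at most 0.872 CPM, against a lowest cortex library of 23.8 CPM. Next came pp_235992, with 1273 ± 513 CPM in the cap and 94.5 ± 22.5 CPM in the cortex (SD, n = 6 each). Here the KCl replicate 1 library of the cap stood at 366.1 CPM and the other 5 between 1074 and 1730 CPM, while the cortex libraries ran from 61.6 to 123.7 CPM.

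At the other end of the ranking the score fell to 3.47, and the choice of 150 cut through a continuous range. The last transcripts inside were pp_212161 (37.6 CPM in the cap, 21.3 in the cortex, 1.18 in the meristem and 1.47 in the vascular tissue, means of 6) and pp_179670 (5.87, 16.9, 0.0765 and 0.0223 CPM in the same order). The first outside were pp_225112 (51.0, 5.61, 0.0531 and 0.0427 CPM) and pp_108522 (163.0, 5.45, 0.0419 and 0.0433 CPM). The median score of the 150 was 4.22.

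Transcripts shared by cap and cortex were more numerous than those shared by any other pair of areas scored in the same way. A score of at least 1 was reached by 2287 transcripts for cap and cortex, against 538 for cap and meristem, 527 for cortex and vascular tissue, 512 for meristem and vascular tissue, 366 for cap and vascular tissue and 113 for cortex and meristem. At a score of at least 3 the count was 203 for cap and cortex and between 0 and 34 for the other pairs. The transcript at rank 150 scored 3.47 for cap and cortex and 0.865 to 1.88 for the others. These counts compare pooled area means, with no test.

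**Figure D2:**
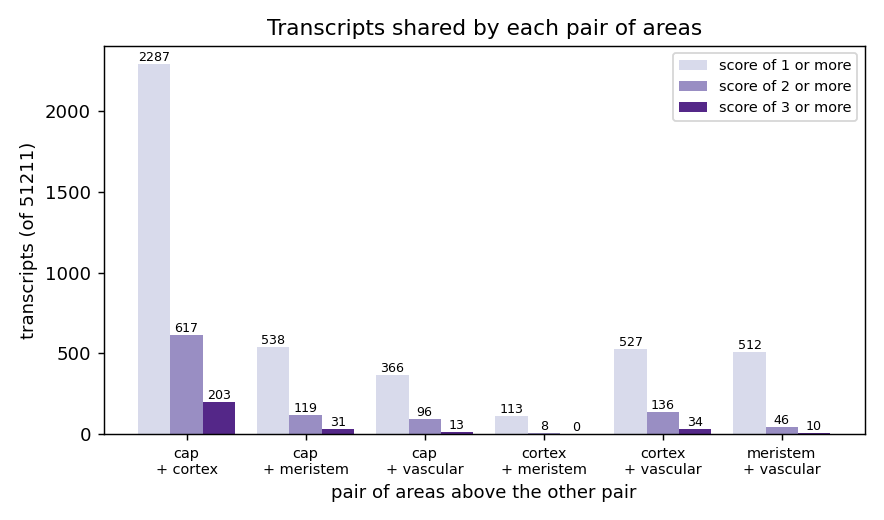
Number of transcripts (y axis, of 51211) whose lower mean in the named pair of areas exceeds the higher mean of the other pair by a log2 score of at least 1, 2 or 3 (light to dark bars). The cap and cortex pair leads at each threshold, with 2287, 617 and 203 transcripts.

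Although both outer areas stood above the inner ones, they were far from equal. The cap mean was the higher in 143 of the 150 transcripts and the cortex mean in 7, and the median ratio of cap to cortex was 9.60. In 103 transcripts the lowest cap library was above the highest cortex library, and in 0 the reverse held. The share of all transcripts with such a separation was not counted, so nothing further is read from these counts. Cap and cortex means lay within 2-fold of each other in 20 transcripts, while the cap was at least 10-fold higher in 74, at least 50-fold in 11 and at least 100-fold in 4. The ranking of the 150 by cap level was only loosely that by cortex level (Spearman's rho of 0.304 across transcripts, which are not independent replicates).

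**Figure D3:**
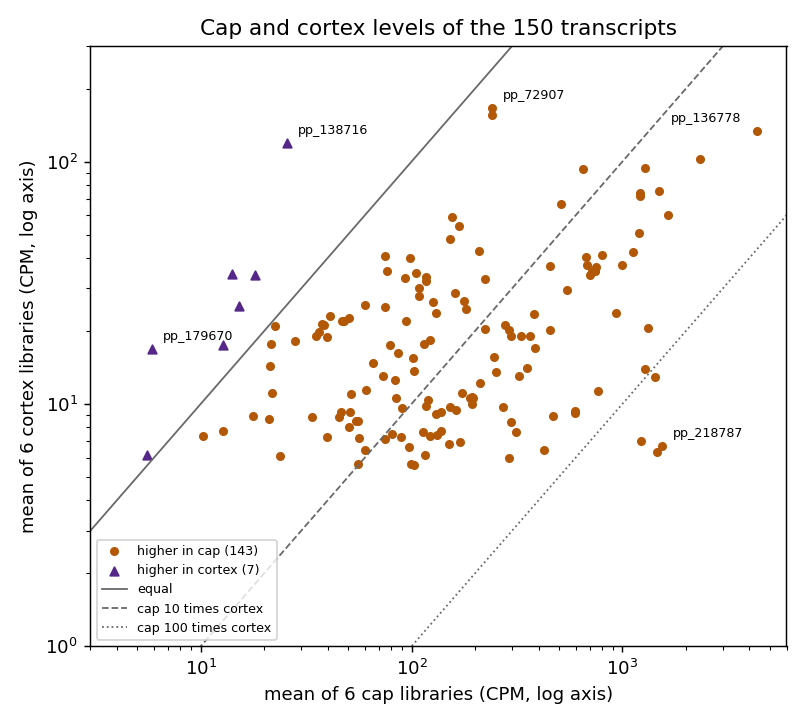
Mean of 6 cap libraries (x axis, CPM, log scale) against mean of 6 cortex libraries (y axis, CPM, log scale) for the 150 transcripts. Circles are the 143 higher in the cap and triangles the 7 higher in the cortex, and lines mark equal levels and a cap level 10 and 100 times that of the cortex.

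The transcripts with the widest gap were pp_218787 and pp_235222. The first had cap libraries of 756.3, 818.9 and 2912 CPM with KCl and 2506, 1182 and 1092 CPM with nitrate, against cortex libraries of 4.07 to 9.62 CPM, a ratio of means of 230.5. The second had a cap mean of 1464 ± 941 CPM and a cortex mean of 6.36 ± 1.16 CPM (SD, n = 6 each), a ratio of 230.1. Both varied widely between cap libraries and little between cortex libraries, and their inner libraries stayed at or under 0.27 CPM.

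Nearly level between the outer areas were pp_72907 and pp_247850, which also had the highest lower-of-the-outer means of the 150. Libraries of pp_72907 in the cap gave 52.1, 336.6 and 381.6 CPM with KCl and 231.7, 208.3 and 229.2 CPM with nitrate. Its cortex libraries gave 51.7, 133.9 and 273.6 CPM with KCl and 251.7, 133.7 and 157.9 CPM with nitrate, so the areas overlapped and set 1 with KCl was the lowest in both. It also had the highest meristem mean of the 150, 9.95 ± 7.44 CPM (SD, n = 6). For pp_247850 the cap libraries ran from 154.2 to 399.8 CPM and the cortex libraries from 31.0 to 262.5 CPM, again overlapping, with inner libraries of at most 5.88 CPM.

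The third-highest lower outer mean was that of pp_136778, which was far from level: it had the highest cap mean of the 150, 4356 ± 1088 CPM, and a cortex mean of 133.4 ± 72.9 CPM (SD, n = 6 each). Its cortex libraries gave 226.0, 130.6 and 82.5 CPM with KCl and 219.9, 67.1 and 74.1 CPM with nitrate. The meristem library of set 1 with nitrate had 14.1 CPM, and the other 5 meristem libraries 0.384 to 2.32 CPM. Its cap library of that set was also the highest of the 6, at 6349 CPM.

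Of the 7 transcripts with a higher cortex mean, pp_138716 and pp_179670 had the largest ratio of cortex to cap. The first rests on few libraries and is described with the sets. The second had cap libraries of 8.98, 12.1 and 7.78 CPM with KCl and 1.64, 1.1 and 3.66 CPM with nitrate, and cortex libraries of 38.4, 28.5 and 13.8 CPM with KCl and 6.85, 6.34 and 7.30 CPM with nitrate. In each of the 6 sets its cortex library was above its cap library. The neighbours by ID pp_142039 and pp_142040 had cortex means of 34.4 ± 17.2 and 34.1 ± 21.7 CPM and cap means of 14.1 ± 13.7 and 18.1 ± 21.9 CPM (SD, n = 6 each), and for them too the cortex library was the higher in all 6 sets. The remaining 3, pp_134529, pp_215376 and pp_123218, had cortex means of 6.16 to 25.4 CPM, and their cap and cortex libraries overlapped.

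Because the lower outer mean was usually that of the cortex, the cortex level of these transcripts was set beside that of other cap transcripts. A separate group was taken without the cortex values: transcripts with a cap mean of at least 100 CPM whose inner means were both at most 1% of it. There were 184, of which 87 belonged to the 150 and 97 did not. The cortex mean was 5.53% of the cap mean in the 87 (median, with the middle 50% between 4.07% and 7.91%) and 1.86% in the other 97 (0.580% to 3.41%). Among all 150 the median was 10.4% (5.29% to 28.3%). The rule itself favours a high cortex level, so this gap is a description.

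Among the 10 of these 184 with the highest cap means, the cortex level spanned a wide range. In pp_136778 and pp_181418, which belong to the 150, it was 3.06% and 4.37% of the cap mean. Of the 8 outside, pp_181420, pp_218783, pp_235232, pp_235986 and pp_235750 lay close together at 0.687% to 0.798%, and pp_73676 at 3.72%. In contrast, pp_114011 and pp_235229, with cap means of 2490 and 2162 CPM, stood at 0.00986% and 0.0126%, with cortex libraries of 0 to 0.981 CPM and 0 to 0.622 CPM. All of the 150 had a cortex level of at least 0.434% of the cap level, and 3 were below 0.8%. Whether cap tissue entered the cortex cuts was not tested.

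The cortex share of the summed 150 also varied between sets. Summed CPM in the cortex was 11.3%, 8.99% and 5.62% of that in the cap with KCl, and 6.95%, 6.17% and 6.87% with nitrate. For the 97 cap transcripts outside the 150 the same share was 2.77%, 1.78% and 0.746% with KCl and 1.35%, 0.850% and 1.85% with nitrate. The KCl replicate 1 set was the highest for both groups of transcripts and the KCl replicate 3 set the lowest for both. In all 6 sets the share was higher for the 150 than for the other 97. The rule favours a high cortex level, and the 150 include transcripts outside the cap and inner limits of the 97. This order is therefore a description, set in part by the choice of transcripts.

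The inner libraries held little of these transcripts, but not evenly. Over the 150, means summed to 70.3 CPM in the meristem and 41.0 CPM in the vascular tissue, and the 5 highest made up 30.0% and 23.0% of that. Summed meristem levels were 91.1, 44.9 and 56.2 CPM with KCl and 112.2, 31.1 and 86.5 CPM with nitrate. Summed vascular levels were 36.0, 31.0 and 30.9 CPM with KCl and 78.9, 40.5 and 29.0 CPM with nitrate. The set of nitrate replicate 1 was thus the highest in both inner areas, and in the vascular tissue it stood apart from the other 5.

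A large part of the 150 came in runs of adjacent IDs. There were 63 transcripts in 25 such runs, and 87 stood alone, so the 150 correspond to 112 separate runs and single IDs. The longest run, pp_114446 to pp_114451, had 6 members with cap means of 451.5 to 746.7 CPM and cortex means of 34.1 to 37.1 CPM. Their levels over the pooled cap and cortex libraries correlated at 0.981 or more. The gap between cap and cortex that the members share raises this value, so it does not show that replicates varied together. It was 0.992 even for pp_181418 and pp_181419, whose cortex means differed widely. The run of 5, pp_111554 to pp_111558, had cap means of 39.9 to 76.5 CPM and cortex means of 18.8 to 35.3 CPM. Adjacent IDs may be copies, isoforms or pieces of 1 transcript that share reads, which the sources used here do not settle, so members of a run are not independent and their single values are uncertain.

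Adjacent IDs did not always behave alike. The neighbours pp_181418 and pp_181419 had cap means of 2333 and 1225 CPM but cortex means of 102.0 and 7.00 CPM, which put the cortex at 4.37% of the cap for the first and more than 100-fold under it for the second. The next ID, pp_181420, which is not among the 150, had 3305 CPM in the cap and 22.7 CPM in the cortex.

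Levels of the 150 differed between root-tip sets within each solution. Taking cap and cortex together, 52 were highest in the set of KCl replicate 3, 45 in nitrate replicate 3, 24 in nitrate replicate 1, 23 in KCl replicate 1, 6 in nitrate replicate 2 and 0 in KCl replicate 2. The lowest level fell in KCl replicate 1 for 50, in KCl replicate 2 for 40 and in nitrate replicate 2 for 33. Over all 51211 transcripts each set was the highest for 13.1% to 19.5%. In this pooled level, which mostly follows the cap, KCl replicate 2 and nitrate replicate 2 were thus rarely the highest, one from each solution. The cortex alone gave another order. There KCl replicate 1 was the highest for 57 of the 150 (21.7% of all transcripts), KCl replicate 2 for 17 (19%) and KCl replicate 3 for 16 (16%). Nitrate replicate 2 was the highest for 4 (13.5%). In the cap alone KCl replicate 2 was the highest for 1 (21.4%) and KCl replicate 3 for 59 (17.3%).

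Cap and cortex levels of single transcripts tended to rise and fall together over the sets, though the highest set often differed between the areas. Pearson's r between the cap and cortex library over the 6 sets had a median of 0.649 over the 150 (middle 50% between 0.409 and 0.840). It was positive in 136. Its median over all transcripts that passed the filter on low values was 0.330, and these include transcripts that are low in the cap or cortex. In 52 of the 150 the same set was the highest in both areas. The shares of all transcripts with a positive r or with the same highest set were not counted, so nothing further is read from these counts. These values describe single transcripts over only 6 sets, and members of a run repeat each other.

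How far the sets differed varied widely over the 150. The ratio of the highest to the lowest set, from the mean of cap and cortex plus 0.5 CPM, had a median of 3.24, was under 3 in 68 transcripts and over 10 in 18. Of these 18, 7 were highest in the set of KCl replicate 1.

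The most set-dependent was pp_138716, with a ratio of 819.2. Its cap libraries gave 152.6, 0 and 0.686 CPM with KCl and 0.0475, 0 and 0 CPM with nitrate, and its cortex libraries 665.6, 0 and 20.4 CPM with KCl and 29.1, 0.0403 and 0 CPM with nitrate. In the meristem the set of KCl replicate 1 had 4.95 CPM, and the other 5 libraries 0 to 0.154 CPM. One set thus carried most of its reads in 3 areas, and its place among the 150 rests on that set.

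The reverse pattern was that of pp_156759, with a ratio of 260.5. It was at 0.123, 26.9 and 138.6 CPM in the cap with KCl and 269.8, 41.0 and 226.0 CPM with nitrate. In the cortex it was at 0, 3.02 and 12.2 CPM with KCl and 21.8, 2.58 and 19.3 CPM with nitrate. Here the set of KCl replicate 1 was near 0 in every area, and nitrate replicate 1, nitrate replicate 3 and KCl replicate 3 led in that order in cap and cortex.

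A further pattern was that of pp_203613, named with pp_203618 and pp_203619 after their values were seen. Each was highest in the set of nitrate replicate 2 in the mean of cap and cortex. In the cap pp_203613 had 187.1, 6.70 and 5.37 CPM with KCl and 0.428, 307.6 and 0.417 CPM with nitrate. Its cortex libraries gave 37.2, 10.7 and 0.388 CPM with KCl and 0.0808, 15.0 and 0.111 CPM with nitrate. For pp_203613 the sets of KCl replicate 1 and nitrate replicate 2 were the highest in both areas, so the high sets again came one from each solution. In the cortex KCl replicate 2, at 10.7 CPM, was near nitrate replicate 2, at 15.0 CPM.

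**Figure D4:**
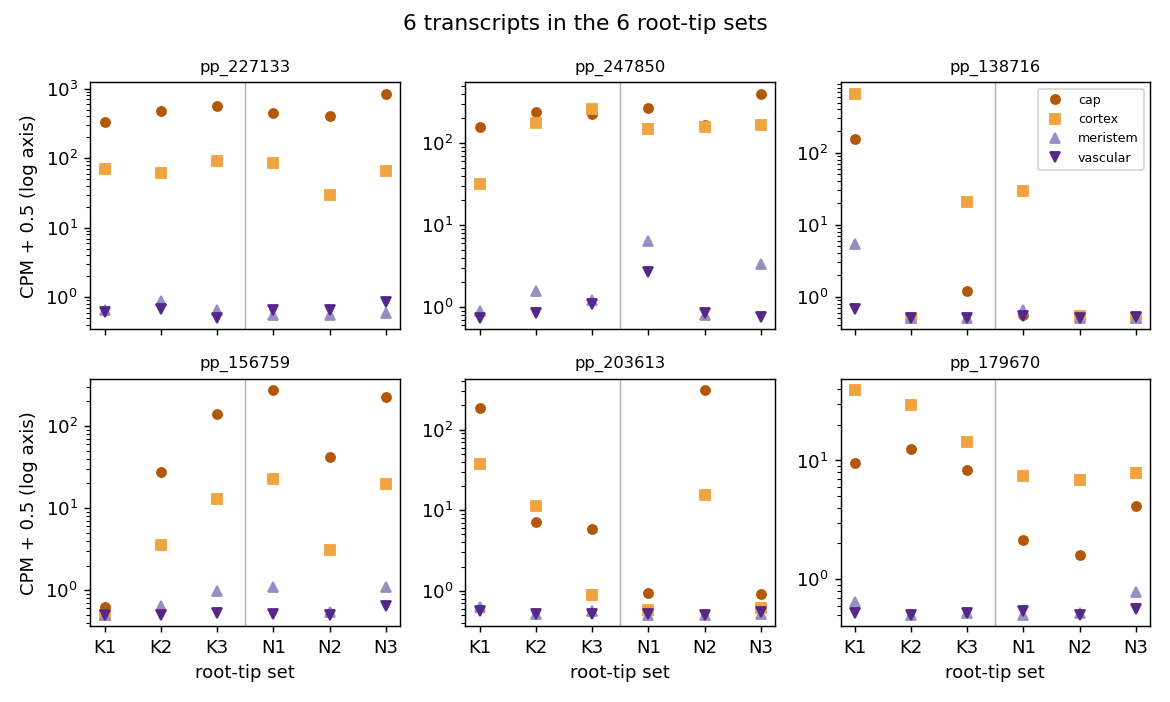
CPM plus 0.5 (y axes, log scale) of 6 transcripts in the cap, cortex, meristem and vascular library of each root-tip set (x axis, K for KCl and N for nitrate with the experiment number). The transcript pp_227133 is steady across sets, and pp_138716 and pp_203613 are higher in 1 or 2 sets than in most others. The transcript pp_156759 is near 0 in set K1, and pp_179670 is lower in the nitrate sets.

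The comparison of solutions asked how these transcripts responded within 2 h of nitrate, which the rule did not use. In the cap, 0 of the 150 were called at an adjusted p below 0.05 by limma, with 0.094% of all 51044 tested transcripts called (36 higher and 12 lower). At an unadjusted p below 0.05 there were 8 of the 150, 7 higher and 1 lower, and 7.34% of all transcripts. By edgeR 0 were called as well (0.0294% of all), with 11 at an unadjusted p below 0.05 (7.89% of all). All 150 had passed the filter on low values.

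In the cap the summed level of the 150 was 41162, 39577 and 66970 CPM with KCl and 57260, 44677 and 58043 CPM with nitrate, so the solutions overlapped. The median change of the 150 was 0.17 on the log2(CPM + 0.5) scale, against -0.01 for all transcripts tested, with 93 above 0 and 57 below. Without KCl replicate 2 of the cap this median became -0.09, with 65 above 0 and 85 below, and without nitrate replicate 3 it was -0.00, with 75 above 0 and 75 below. Without KCl replicate 3 it became 0.32, with 110 above 0, and without nitrate replicate 2 it was 0.30. The direction of the median in the cap therefore rests on single libraries.

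Leaving out KCl replicate 3 of the cap also brought calls. Then 2 of the 150 were called higher with nitrate, with 0.909% of all transcripts called. They were pp_219126 (a change of 1.78 with a standard error of 0.319, limma adjusted p = 0.0418) and pp_60188 (1.58 with a standard error of 0.273, adjusted p = 0.0383), named because they were the ones called. Cap libraries of pp_219126 gave 38.4, 34.3 and 95.3 CPM with KCl and 171.7, 87.1 and 132.0 CPM with nitrate, so the library left out was the highest of its group and overlapped with the nitrate libraries. For pp_60188 the values were 112.0, 133.0 and 405.1 CPM with KCl and 338.8, 278.8 and 517.3 CPM with nitrate.

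In the cortex, 0 of the 150 were called by limma, with 0.137% of all transcripts called (57 higher and 13 lower), and 9 had an unadjusted p below 0.05, 3 higher and 6 lower (4.32% of all). By edgeR 0 were called (0.0549% of all), with 5 at an unadjusted p below 0.05 (4.02% of all). Summed levels were 4671, 3558 and 3765 CPM with KCl and 3980, 2756 and 3988 CPM with nitrate, overlapping again. The median change was -0.13 on the log2 scale, against 0.00 for all transcripts, with 63 above 0 and 87 below. Without nitrate replicate 2 of the cortex it became 0.09, with 87 above 0 and 63 below, so this direction too rests on 1 library. It was -0.04 without KCl replicate 1 of the cortex and -0.21 without nitrate replicate 3.

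The nitrate effect was also compared between the areas directly. The difference, the effect in the cap minus that in the cortex, was called for 0 of the 150 and for 0% of all transcripts, by limma and by edgeR alike. At an unadjusted p below 0.05 there were 3 of the 150 by each tool, and 2.58% of all transcripts by limma and 2.23% by edgeR. The median difference was 0.27 on the log2 scale, against -0.02 for all transcripts. It was 0.03 without KCl replicate 2, 0.09 without nitrate replicate 3 and 0.44 without KCl replicate 3 of the cap, and 0.16 without KCl replicate 1 and 0.06 without nitrate replicate 2 of the cortex. Without KCl replicate 3 of the cap, 11 of the 150 had an unadjusted p below 0.05 (8.17% of all) and 0 were called. A block for the root-tip set left the count of calls at 0 of the 150, with 13 at an unadjusted p below 0.05 (4.26% of all).

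The smallest p for that difference was that of pp_204258, which was not called. Its cap libraries gave 98.1, 124.1 and 116.3 CPM with KCl and 181.3, 168.3 and 141.2 CPM with nitrate, and its cortex libraries 12.8, 7.02 and 9.08 CPM with KCl and 7.50, 3.52 and 6.44 CPM with nitrate. The cap libraries did not overlap between solutions and lay higher with nitrate, while those of the cortex overlapped. The difference was 1.23 (log2) with a standard error of 0.382 (limma adjusted p = 1, edgeR adjusted p = 1).

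One transcript came nearest to a call in both outer areas. This was pp_179670, the last of the 150, whose values are given above: all 3 nitrate libraries lay below all 3 KCl libraries in the cap and in the cortex. Its change was -2.04 with a standard error of 0.394 in the cap (limma adjusted p = 0.141) and -1.79 with the same standard error in the cortex (adjusted p = 0.260). From 1 mean of cap and cortex per set it was -1.91 with a standard error of 0.30 (adjusted p = 0.357). By edgeR the adjusted p was 0.318 in the cap and 0.522 in the cortex.

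That result depended on the fit. With all 24 libraries in 1 model, pp_179670 was called in the cap (adjusted p = 0.0029) and in the cortex (adjusted p = 0.0142), as 1 of the 150 in each, with 0.907% and 0.208% of all transcripts called. The 12 inner libraries of this transcript are near 0 and have little spread, and the standard error was 0.324 in that model against 0.394. By DESeq2 it was also called in both, with adjusted p = 0.00119 in the cap and 0.00532 in the cortex, and with 1.18% and 0.467% of all transcripts called. In the meristem it had 0 to 0.274 CPM and in the vascular tissue 0 to 0.0572 CPM, too low for a change of this kind to show.

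Libraries that did not overlap between the solutions were counted in both outer areas together. The nitrate libraries lay above the KCl libraries in the cap and the cortex for 2 of the 150, against 0.957% of all transcripts, and below them for 1, against 0.769%. These shares of the 150 were near those of all transcripts. The 1 that was lower was pp_179670. The 2 that were higher, named because the count is small, were pp_152473 and pp_215680.

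In the cap pp_152473 gave 33.5, 137.6 and 132.7 CPM with KCl and 174.1, 255.4 and 889.1 CPM with nitrate. Its cortex libraries gave 8.46, 6.79 and 5.00 CPM with KCl and 12.5, 8.52 and 16.8 CPM with nitrate, where the nearest libraries of the solutions differed by less than 1%. Its change in the cap was 2.00 (log2) with a standard error of 0.634 (limma adjusted p = 0.446). For pp_215680 the cap libraries gave 76.8, 83.4 and 43.9 CPM with KCl and 108.2, 86.6 and 102.8 CPM with nitrate, a change of 0.59 with a standard error of 0.428 (adjusted p = 0.852).

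**Figure D5:**
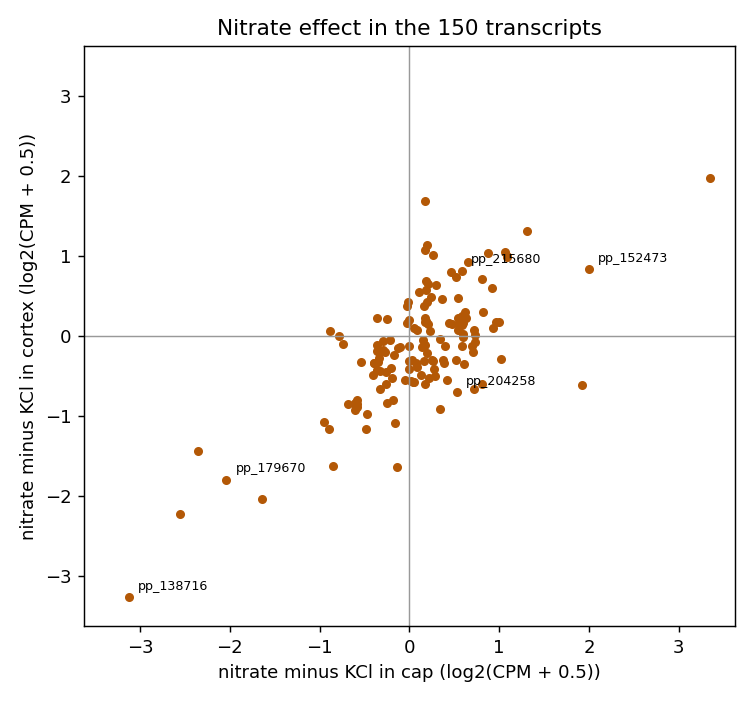
Nitrate minus KCl on the log2(CPM + 0.5) scale in the cap (x axis) and in the cortex (y axis) for the 150 transcripts, each from 3 against 3 libraries per area. No point was called by limma in either area; pp_179670 lies at -2.04 and -1.79, and pp_138716 far down on both axes is the transcript carried by the set of KCl replicate 1.

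From 1 mean per root-tip set over cap and cortex, 0 of the 150 were called by limma, with 0.0294% of all transcripts called, and 6 had an unadjusted p below 0.05 (5.52% of all). In the meristem 0 were called (0.0372% of all), with 18 at an unadjusted p below 0.05, 4 higher and 14 lower (5.27% of all). With all 24 libraries in 1 model there was 1 in place of the 18 (4.45% of all). In the vascular tissue 0 were called (0.225% of all), with 3 at an unadjusted p below 0.05 (12.4% of all). By edgeR 0 were called in the meristem (0.00392% of all) and 0 in the vascular tissue (0.0784% of all), with 8 and 4 at an unadjusted p below 0.05 (5.47% and 10.7% of all). Most of the 150 had passed the filter only through their cap and cortex levels. With the filter set within the inner libraries, 25 of the 150 were tested and 0 called. Of all 45714 then tested, 10 were called higher and 11 lower in the meristem, 73 and 9 in the vascular tissue. Of the 25, 0 had an unadjusted p below 0.05 in the meristem (2347 of all) and 1 in the vascular tissue (5790 of all).

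The smallest p in the meristem was that of pp_192068, at 0.334, 0.242 and 0.18 CPM with KCl and 0, 0.115 and 0.0342 CPM with nitrate, a change of -0.45 with a standard error of 0.102 (limma adjusted p = 0.476). In the vascular tissue it was that of pp_193455, at 0.127, 0.13 and 0.0362 CPM with KCl and 0.26, 0.263 and 0.248 CPM with nitrate, a change of 0.34 with a standard error of 0.12 (adjusted p = 0.334). The added 0.5 CPM is above all of these values, so the sizes of both changes depend on it. For pp_192068 the change was -1.28 with 0.1 CPM added and -2.27 by edgeR. For pp_193455 it was 0.892 and 1.35. Both stand on low counts: 48 reads over the 6 meristem libraries for pp_192068 and 55 over the 6 vascular libraries for pp_193455.

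The precision of these tests sets their reach. The standard error of the nitrate effect over the 150 had a median of 0.49 on the log2 scale in the cap and cortex. Its range was 0.22 to 2.68. A change by a factor of 2 in a typical transcript of the 150 was thus about 2 standard errors, which was too small for a call. Even pp_179670 in the cap, at -2.04 with a standard error of 0.394, was not called in the main fit (limma adjusted p = 0.141). A p that misses the threshold here does not show that a transcript did not respond.

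Whether the pattern of high cap and cortex over low inner areas recurs in other libraries could be tested by choosing transcripts in one solution and testing them in the other. The rule applied to the 12 KCl libraries gave 150 transcripts, of which 132 were among those described above. In the 12 nitrate libraries 139 of them were higher in the cap and in the cortex than in the meristem and in the vascular tissue, all 4 contrasts called by limma, compared with 5.14% of all transcripts tested. By edgeR it was 137 (5.56% of all). The median change was 7.42 from meristem to cap and 4.11 from meristem to cortex on the log2 scale.

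The reverse choice gave a like count. The rule applied to the nitrate libraries gave 150 transcripts, of which 131 were among those described above and 113 in the KCl-chosen list. In the KCl libraries 143 of them were called in all 4 contrasts by limma, compared with 4.23% of all transcripts, and 141 by edgeR (4.78% of all). The median score of the KCl-chosen transcripts was 4.32 in the KCl libraries and 3.99 in the nitrate libraries. That of the nitrate-chosen ones was 4.09 in the nitrate libraries and 4.21 in the KCl libraries.

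The transcripts that did not pass were mostly set-dependent ones with low or absent cortex levels in some libraries. Of the 11 in the KCl-chosen list, 10 missed a cortex contrast and 4 a cap contrast. In the nitrate libraries pp_138716, carried by 1 KCl set, was called in 0 of the 4 contrasts, with a change of -0.09 from meristem to cap and 1.87 from meristem to cortex. Also at 0 of the 4 were pp_203613 and pp_203619, which were high in only 1 of the 3 nitrate sets. Of the 7 in the nitrate-chosen list, 6 missed a cortex contrast, among them pp_156759, which was near 0 in 1 KCl set.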

How the data were processed

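The submitters' processing notes name bcl2fastq and BWA without versions. The sources used here give no read counter, transcriptome or scaling method. The labels' protocols give RNA integrity above 7, a kit for low RNA input and paired-end reads of 150 bp. The deposited values are a scaled signal that the authors named CPM: column totals ran from 786966 to 1173830, and 100% of values were whole multiples of 1 read within 0.02 reads. The tests planned for CPM were kept. The filter was 1 CPM or more in 3 or more libraries, which 51044 transcripts passed. Their log2(CPM + 0.5) values entered limma 3.58.1 (R 4.3.3) with a variance trend and the Benjamini-Hochberg adjustment over all of them. A call is an adjusted p below 0.05. Cap and cortex effects came from their 12 libraries, inner effects from the other 12, and cap and cortex together from 6 set means. On recovered reads, edgeR 4.0.16 (quasi-likelihood) and DESeq2 1.42.0 were alternatives, beside pseudocounts, filters, scalings, blocks and left-out libraries. The procedure was tested on simulated data. Replicate libraries differed by more than sampling noise.

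Deviations from group means correlated between cap and cortex of the same solution and number at 0.361 to 0.616 over 6 pairs, so these were treated as sets, which the labels do not state.

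The rule, the 150 transcripts and the tests were chosen with earlier results of these data known. Named are the 3 highest scores, the 3 highest lower outer means, 2 extremes of each ratio, the pairs just inside and just outside the last rank, the smallest p per contrast and the 2 largest set ratios. IDs with a name numbered 0 of 51211, so lists of marker and nitrate genes could not be tested.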

Additional observations from a re-analysis of the deposited data

Results flagged for a closer look

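Single libraries were compared with the other 5 of their area for the named transcripts and for the summed 150 transcripts, in 34 groups of 6. A library stood apart where its gap to the nearest one, as a share of the whole range, exceeded Dixon's 95% critical value. This marked 3 groups, where chance marks about 1 in 20 groups. The first 2 are those of pp_138716, which was named for its spread between sets, so they are a description and are not set against that rate.

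The transcript pp_138716 was at 152.6 CPM in cap KCl replicate 1 and at most 0.686 CPM in the other 5 cap libraries, a gap of 0.996 of the range. In the cortex it was at 665.6 CPM in KCl replicate 1 and at most 29.1 CPM in the other 5, a gap of 0.956 of the range. Both libraries belong to the same root-tip set.

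The summed level of the 150 transcripts in the vascular tissue was 78.9 CPM in nitrate replicate 1 and at most 40.5 CPM in the other 5 libraries, a gap of 0.77 of the range. The largest single contribution was that of pp_128742, at 8.30 CPM there and 0.153 to 1.06 CPM in the others.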

How the results depend on the processing

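Counts of the 150 called for nitrate changed in these cases: in the cap to 2 without KCl replicate 3 (0 to 2 over the 12 libraries left out in turn), to 1 with all 24 libraries and to 1 by DESeq2; in the cortex to 1 with all 24 libraries and to 1 by DESeq2. All other alternatives run gave 0 in the 6 nitrate comparisons. In the inner areas, only 25 of the 150 were tested with the filter set there, and only 80 had an adjusted p by DESeq2. The transcript pp_179670 accounts for the 1 in each case, with changes of -2.04 and -2.18 in the cap and -1.79 and -1.98 in the cortex. The changes of the transcripts with the smallest p, pp_179670, pp_204258, pp_192068 and pp_193455, kept their sign in all alternatives in which they were tested. With the filter set within the inner libraries, pp_192068 and pp_193455 were not tested. For an effect within 1 area, leaving out a library of the other area cannot alter the change, so those alternatives add nothing on its sign. The median nitrate change of the 150 did not: it ran from -0.09 to 0.32 in the cap and from -0.21 to 0.09 in the cortex with single libraries left out. Pairing by experiment number across solutions was not borne out (correlations of -0.0429 to 0.298 over 12 pairs). With that number as a replicate block, 0 of the 150 were called in each nitrate comparison. At an unadjusted p below 0.05 there were 19 in the cap (9.21% of all transcripts) and 19 in the cortex (5.55%). The KCl-chosen and nitrate-chosen lists were each tested within 1 solution, where the number marks the root-tip set. With this block the lists had 141 and 146 called, against 139 and 143 in the main fits, which ignore the sets. Leaving out single libraries gave 133 to 142 and 132 to 144 called in the lists. The choice of the 150 depended most on the added constant: 120 remained with 0.1 CPM and 133 with 1 CPM. Medians per area kept 129, mean log values 135, both other scalings 147 or more, and leaving out a set 136 to 146. The median ratio of cap to cortex was 8.30 to 11.8 without single sets. In the inner areas depth limits the values, which often rest on fewer than 10 reads.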
